A study of Arabidopsis thaliana and Marchantia polymorpha with 6 samples.

Results

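LysM receptor genes encode cell-surface proteins whose lysin motifs hold sugar polymers of microbes, such as chitin from fungal walls and peptidoglycan from bacterial walls. In Arabidopsis thaliana the receptor-like kinases CERK1 and LYK2 to LYK5 carry an intracellular kinase domain, and LYM1 to LYM3 are anchored to the membrane by a lipid tail without one. Chitin is perceived by LYK5 and LYK4 together with CERK1, which passes the signal on by phosphorylation, and LYM1 and LYM3 bind peptidoglycan. HY5, a bZIP factor, promotes seedling development in light. PIF4, a bHLH factor, promotes elongation in shade and warmth.

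The 8 genes were taken by symbol from 27444 protein-coding nuclear genes. They comprise 5 kinase genes and 3 LYM genes, and all 8 were found. For each, the AtPIF4 and AtHY5 binding events centred inside the gene or within 2000 bp of either end were collected. The family was chosen by these same measured values, chiefly the high-scoring coincident events at LYK4, so every count and rank below is a description and none carries a test.

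Binding was measured by DAP-seq, which recovers the fragments of naked genomic DNA that a purified protein retains. The Arabidopsis proteins AtPIF4 and AtHY5, made in bacteria and held on amylose beads, were each offered DNA of 10-day-old Col-0 seedlings, sheared to a mean of 200 bp. No chromatin or partner protein takes part in such an assay, and the proteins carry no modification made by the plant. There is 1 library per protein, so no value has a replicate error, and the input library and all Marchantia libraries were not analysed here. The AtPIF4 list holds 6699 events with scores from 79 to 61759 and a median of 146, and the AtHY5 list 16825 events with scores from 59 to 150414 and a median of 117. The depth behind the lists is unknown. The score is the authors' own value for each event. What it counts is not stated, so it was only ranked within its own list. A score percentile below is the share of a list with a lower score.

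LYK4 carried the highest-scoring events of the family for both proteins, and they lay almost on the same base. LYK5 had the most events, a lead over LYK4 that rests on 2 AtHY5 events inside the neighbouring gene GALS1. LYM2 had 1 close pair inside the gene, and LYM3 a weak pair outside it. LYK2 and LYK3 each had 1 weak event of a single protein. CERK1 and LYM1 had none of either protein within 2000 bp. An AtPIF4 event was found at 5 of the 8 genes, where 31.5% of all protein-coding genes had one (95% Wilson interval 31.0 to 32.1, counting error only). An AtHY5 event was also found at 5 of 8, beside 59.9% of all genes (59.3 to 60.5). These intervals treat genes as independent draws, although neighbouring windows can share an event, and they do not describe the 8 members. Events of both proteins were found at 4 genes, beside 25.2% of all genes. At all 4 the 2 proteins had coincident events, here centres at most 100 bp apart, beside 16.7% of all genes. Neither protein had an event at 2 genes, beside 33.7% of all genes. These percentages are given as background only, since the events took part in the choice of the genes.

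**Figure D1:**
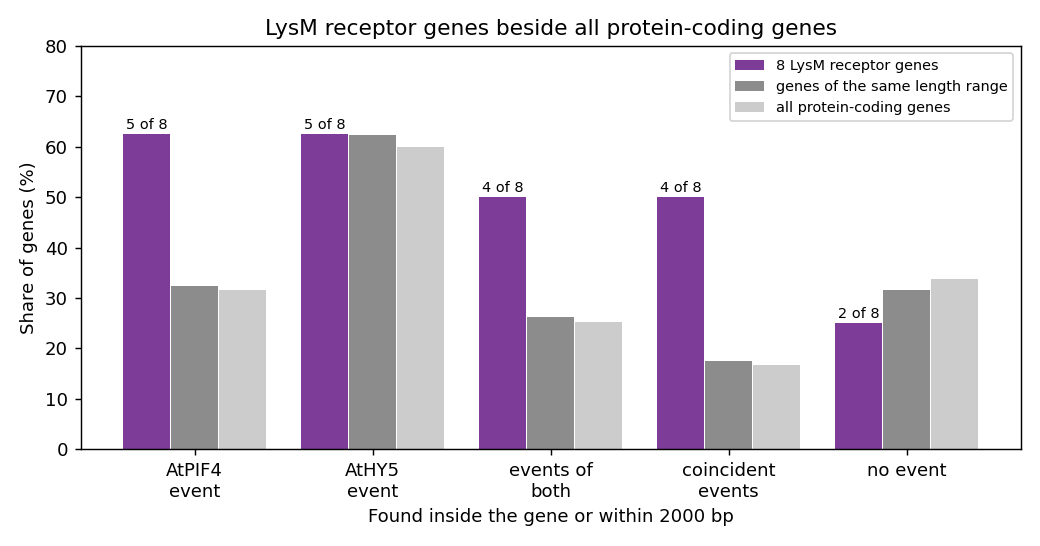
Bars give the share of genes in percent with each kind of event inside the gene or within 2000 bp, for the 8 LysM receptor genes, the 10153 protein-coding genes of 1890 to 3350 bp and all 27444 protein-coding genes. The family stood at 5 of 8 for each protein and at 4 of 8 for coincident events, and the genes of the same length range stood close to all genes.

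The members are 1890 to 3350 bp long, and longer genes offer more room for an event. Among the 10153 protein-coding genes in that length range, 32.3% had an AtPIF4 event, 62.4% an AtHY5 event, 26.3% events of both, 17.5% coincident events and 31.6% no event. The windows held 6 AtPIF4 and 10 AtHY5 events in all, a mean of 0.75 and 1.25 per member. Genes in the same length range had a mean of 0.42 AtPIF4 and 1.11 AtHY5 events. Of the 16 events, 4 of AtPIF4 and 5 of AtHY5 lay inside a member. A further 3 lay inside a neighbouring gene, and the remaining 4 were the pairs outside LYK4 and LYM3.

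**Figure D2:**
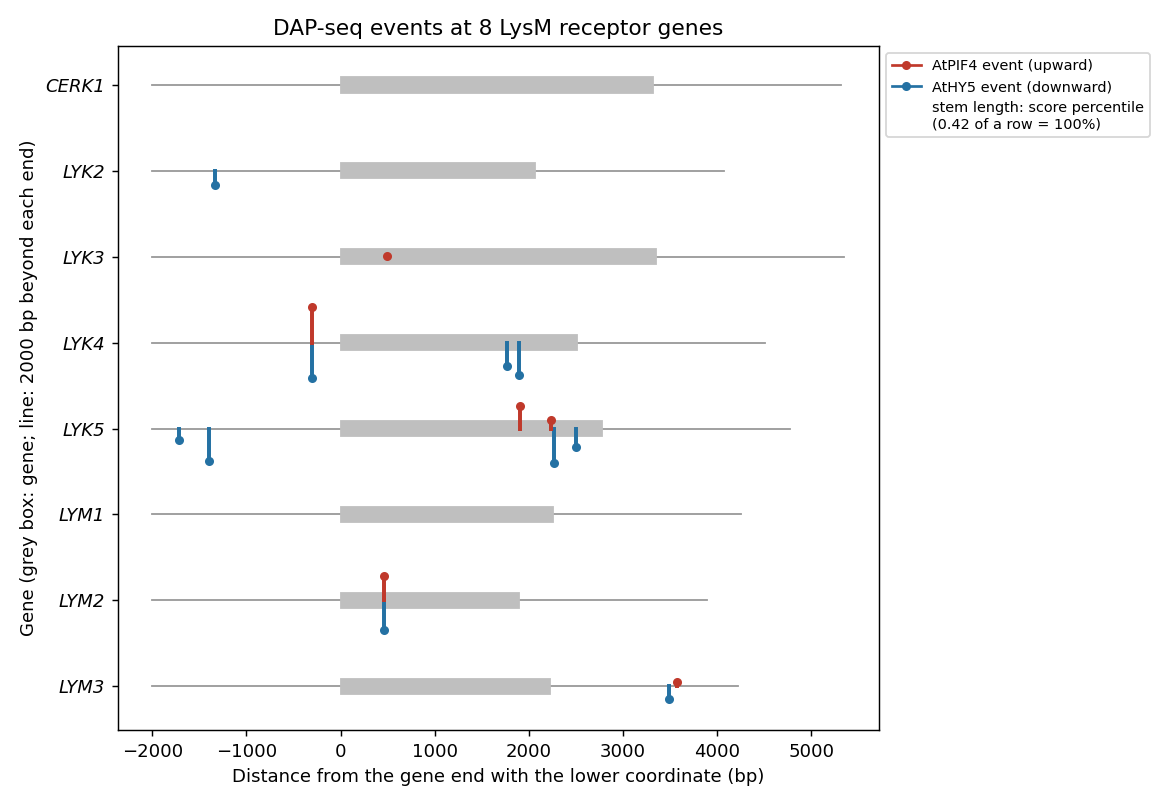
Each row shows 1 gene as a grey box with 2000 bp on either side, with distance in bp from the gene end of lower coordinate on the horizontal axis. Red stems upward are AtPIF4 events and blue stems downward are AtHY5 events, with length in proportion to the score percentile; LYK4 shows 2 opposed long stems just outside the gene, and CERK1 and LYM1 show none.

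Which members had events depended on how far from the gene they were sought. Inside the gene, 3 members had an AtPIF4 event (LYK3, LYK5 and LYM2) beside 13.7% of all protein-coding genes, and 3 had an AtHY5 event (LYK4, LYK5 and LYM2) beside 30.3%. LYK5 and LYM2 had both, beside 9.0% of all genes, and in each they were coincident, beside 6.67%. Within 500 bp, 4 members had an AtPIF4 event beside 18.7% of all genes, 3 an AtHY5 event beside 39.8%, 3 both beside 13.2% and 3 coincident events beside 9.46%. Within 1000 bp the members' counts stood as at 500 bp, beside 23.1%, 47.7%, 17.0% and 11.9% of all genes. LYK4 entered the counts for AtPIF4, both and coincident events at 500 bp, with its pair outside the gene. Within 5000 bp, 5 members had an AtPIF4 event, 7 an AtHY5 event, 5 both and 4 coincident events, beside 50.6%, 80.5%, 45.6% and 29.3% of all genes. CERK1 was the 1 member with no event even then.

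Among events above the median score of their list, LYK4, LYK5 and LYM2 had events of each protein. These 3 stood beside 17.5% of all protein-coding genes for AtPIF4, 37.2% for AtHY5 and 11.6% for both. LYK4 and LYM2 had coincident events above the median, beside 7.97% of all genes. Coincidence within 20 bp also left these 2 members, beside 10.3% of all genes. Within 50 bp there were 3 members beside 13.8%, and within 200 bp 4 members beside 18.3%.

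LYK5 is the main chitin-binding receptor of the family, and LYK4 acts beside it in chitin responses. At LYK4 (AT2G23770, 2507 bp) the AtPIF4 event lay at chr2:10119576-10119775, in the TAIR10 coordinates of the lists, with a score of 1177. It ranked 68 of 6699, a percentile of 99.0. The AtHY5 event lay at chr2:10119575-10119774 with a score of 1351 and ranked 138 of 16825, a percentile of 99.2. The centres were 1 bp apart, 298 and 299 bp outside the gene end of lower coordinate.

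On that side of LYK4 the next protein-coding gene, the homeodomain gene BLH4, was 6645 bp away, and 0 genes of any kind were listed within 5000 bp. The nearest other protein-coding gene to the pair was AT2G23780, on the far side of LYK4 and 2822 bp from the AtPIF4 centre. The pair was therefore closer to LYK4 than to any other protein-coding gene. The gene table used gives no strand, so whether this end is the start of LYK4 was not determined.

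AtHY5 had 2 more events inside LYK4, which had no AtPIF4 event nearby. They lay at chr2:10121774-10121973 with a score of 353 and at chr2:10121641-10121840 with a score of 154. Their percentiles were 90.4 and 65.7, and their centres were 133 bp apart and 606 and 739 bp from the gene end of higher coordinate. AT2G23780 lay 17 bp beyond that end, at 624 and 757 bp from these centres. The nearest AtPIF4 event was more than 2000 bp away for both, at 2198 and 2065 bp. A weaker AtHY5 event of score 101 lay 3158 bp beyond LYK4, outside the window.

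Few coincident pairs in the genome scored as high as that of LYK4 in both lists. Of 3355 AtPIF4 and AtHY5 pairs within 100 bp, 13 had both scores at least as high, the LYK4 pair included. Of these, 6 lay within 10000 bp of a nuclear ribosomal RNA gene and 7 did not. Such a pair stood inside or within 2000 bp of 12 protein-coding genes, LYK4 included, or 0.0437% of all. The cut-offs are LYK4's own scores, which took part in the choice of the family, so this share is a description only. A distance of 1 bp is common among pairs, at 845 of 3355 or 25.2%.

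**Figure D3:**
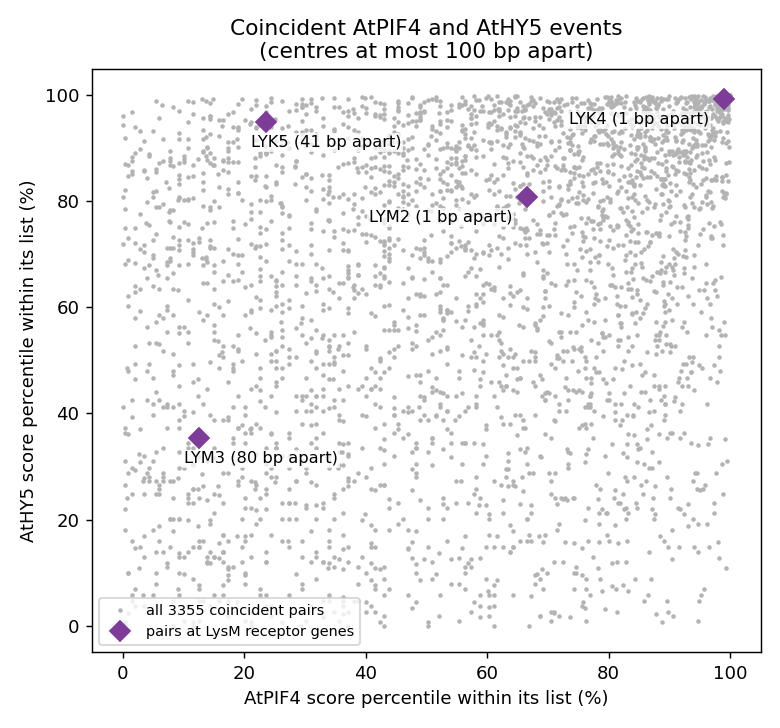
Each grey point is 1 of 3355 coincident pairs, with the AtPIF4 score percentile on the horizontal and the AtHY5 score percentile on the vertical axis. Purple diamonds mark the 4 pairs at LysM receptor genes: LYK4 sits in the top right corner at 99.0 and 99.2, and LYM3 lies in the lower left at 12.5 and 35.3.

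The 5 genes outside the family most like LYK4 were those whose strongest coincident events had the nearest score percentiles, summed over both lists. They were EXO, AT3G07255, HAP2, AT2G28780 and SHOT1, with summed differences of 0.24 to 0.78 percentile points. EXO, a growth gene that responds to brassinosteroid, had scores of 1156 for AtPIF4 and 1238 for AtHY5, with centres 16 bp apart and 1331 bp outside the gene. HAP2, which is needed for gamete fusion, had scores of 1419 and 1383, 52 bp apart and inside the gene. SHOT1 had scores of 2503 and 1361, 2 bp apart and 965 bp outside the gene. None of the 5 lay within 10000 bp of a ribosomal RNA gene. The likeness covers 2 values per gene and says nothing of the genes' roles.

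LYK5 (AT2G33580, 2774 bp) had 2 AtPIF4 and 4 AtHY5 events in its window. Both AtPIF4 events lay inside the gene, with scores of 167 at chr2:14221286-14221485 and 114 at chr2:14221612-14221811. Their percentiles were 61.5 and 23.5. The strongest AtHY5 event, at chr2:14221653-14221852 with a score of 518, ranked 847 and stood at percentile 95.0. Its centre was 41 bp from the weaker AtPIF4 event and 502 bp from the gene end of higher coordinate. A second AtHY5 event inside LYK5 had a score of 117, close to the list's median.

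The other 2 AtHY5 events of LYK5 lay in the neighbouring gene GALS1, which encodes a galactan synthase and ends 228 bp from LYK5. Their scores were 351 at chr2:14217989-14218188 and 92.2 at chr2:14217668-14217867, at 1393 and 1714 bp from LYK5. The higher of them stood at percentile 90.3, so 1 of the stronger AtHY5 events counted for LYK5 sits within another gene. Windows with 4 or more AtHY5 events belonged to 3.92% of all protein-coding genes and to 4.42% of those in the members' length range. The event at 1714 bp was the farthest counted for any member. The next beyond the limit was another AtHY5 event in GALS1, of score 181, at 2340 bp.

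LYK4 and LYK5 each had AtHY5 events inside the gene within 739 bp of the end of higher coordinate. In LYK5 the weaker AtPIF4 event lay in the same stretch, at 543 bp from that end, and the stronger one farther in, at 869 bp. In LYK4 there was no AtPIF4 event inside the gene. The next protein-coding gene lay 17 bp beyond this end of LYK4 and 915 bp beyond that of LYK5. Without strand it is not known whether these ends correspond.

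**Figure D4:**
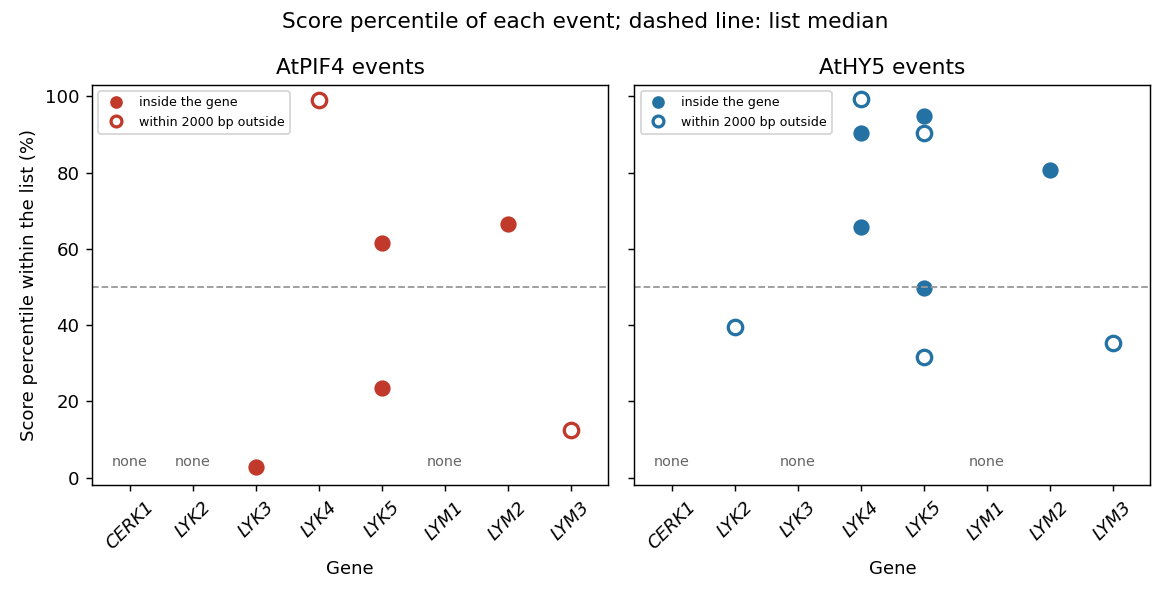
Score percentile within the list, in percent, of each event inside a LysM receptor gene (filled) or within 2000 bp of it (open), for AtPIF4 on the left and AtHY5 on the right, with the list median as a dashed line. LYK4 lies at 99.0 and 99.2, LYK5 and LYM2 have events of both proteins above the median, and LYK2, LYK3 and LYM3 lie below it.

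CERK1 (AT3G21630, 3315 bp) is the kinase that LYK4, LYK5, LYM1 and LYM3 act with. It had 0 events of either protein in its window. The nearest AtHY5 event lay 5953 bp and the nearest AtPIF4 event 6695 bp outside the gene. CERK1 has close neighbours, with gaps of 863 bp to AT3G21620 and 179 bp to TWD1, an immunophilin-like gene, so its window took in parts of both. With 1 library of unknown depth, a gene without an event is one where none was called.

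LYK2 (AT3G01840, 2067 bp) had 1 AtHY5 event and no AtPIF4 event. Its score of 102 stood at percentile 39.6. It lay at chr3:295146-295345, 1337 bp outside LYK2 and inside AT3G01820, and LYK2 itself overlaps AT3G01830 in the gene table. The nearest AtPIF4 event was 34132 bp from LYK2. LYK3 (AT1G51940, 3350 bp), a kinase gene linked to restraint of defence responses, had the reverse arrangement. Its 1 AtPIF4 event, at chr1:19296212-19296411 inside the gene, had a score of 84 and a percentile of 2.82, among the lowest of the list. The nearest AtHY5 event, of score 96.5, lay 3712 bp outside LYK3.

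Of the 3 LYM genes, LYM2 and LYM3 had coincident events and LYM1 had none. LYM2 (AT2G17120, 1890 bp) encodes a chitin-binding protein that acts at plasmodesmata, the channels between plant cells. Its AtPIF4 event at chr2:7459292-7459491 had a score of 181 and its AtHY5 event at chr2:7459291-7459490 a score of 227. They stood at percentiles 66.5 and 80.8. The centres were 1 bp apart, 461 bp (AtPIF4) and 460 bp (AtHY5) inside the gene from the end of lower coordinate. LYM2 overlaps IDH2 in the gene table. Of protein-coding genes, the pair lay inside LYM2 only, 1423 bp (AtPIF4) and 1424 bp (AtHY5) from IDH2. No other event lay in the window. A coincident pair inside the gene was found in 7.29% of protein-coding genes in the members' length range. LYM2 and LYK4 were the members whose pair was 1 bp apart, an arrangement present at 5.03% of all protein-coding genes when centres on the same base are included.

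LYM1 and LYM3 bind peptidoglycan and act together with CERK1. LYM3 (AT1G77630, 2221 bp) had an AtPIF4 event of score 99 at chr1:29176880-29177079 and an AtHY5 event of score 96.8 at chr1:29176800-29176999. Both were low in their lists, at percentiles 12.5 and 35.3. They lay 1350 and 1270 bp outside the gene, and inside no other protein-coding gene. Their centres were 80 bp apart, the widest of the member pairs, and 291 of the 3355 pairs in the genome were at least that far apart. The next closest AtPIF4 and AtHY5 events of any member, in LYK5, were 272 bp apart and not counted as coincident.

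A stronger pair lay beyond the LYM3 window, 3740 bp outside the gene and inside AT1G77640. It joined an AtPIF4 event of score 163 and an AtHY5 event of score 687, at percentiles 59.3 and 97.0, with centres 2 bp apart. LYM1 (AT1G21880, 2252 bp), which overlaps UMAMIT19 in the gene table, had 0 events of either protein in its window. Its nearest AtHY5 event, of score 61.8 and percentile 2.48, lay 4726 bp away, and its nearest AtPIF4 event 12472 bp away. Within 2000 bp, LYM1 and LYM3 thus had low-scoring events or none, as did CERK1, LYK2 and LYK3.

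Ordered by their best AtHY5 percentile, the members ran LYK4 at 99.2, LYK5 at 95.0, LYM2 at 80.8, LYK2 at 39.6 and LYM3 at 35.3. Ordered by AtPIF4, they ran LYK4 at 99.0, LYM2 at 66.5, LYK5 at 61.5, LYM3 at 12.5 and LYK3 at 2.82. With 1 library per protein, no spread is at hand to tell whether neighbours in either order differ. In both lists LYK4, LYK5 and LYM2 had an event above the median, and LYK4 was first.

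Genes linked to the LysM receptors were described in the same way, in lists drawn up with earlier results of these data known. Of 17 genes on the chitin signalling list, 8 had an AtPIF4 event, 11 an AtHY5 event and 5 coincident events. The list takes in the chitinase genes CHIB and CHIA beside signalling genes, and both are among these 5. All 8 with an AtPIF4 event also had an AtHY5 event, and 6 had neither, beside 25.2% of all genes with both and 33.7% with neither. The shares for AtPIF4, AtHY5 and coincident events were 47.1%, 64.7% and 29.4%, beside 31.5%, 59.9% and 16.7% of all genes. CHIB, a basic chitinase gene, had the highest pair, with scores of 331 for AtPIF4 and 481 for AtHY5, 2 bp apart and inside the gene. RBOHD, which encodes the oxidase of the immune oxidative burst, had 2 coincident pairs, the higher with scores of 224 and 217, 1 bp apart and inside the gene. The others were MAPKKK3, listed as MAP3KA, with 209 and 228, CHIA, another chitinase gene, with 146 and 277, and WRKY33, a defence regulator gene, with 263 and 87.5. MPK3, MPK6, MKK4, PBL19, PBL20 and PBL27 were those with no event of either protein. Other kinase genes of the list had events without a coincident pair, BIK1 and MKK5 of both proteins and MAPKKK5 and LIK1 of AtHY5 only. PUB13 likewise had events of both proteins without a coincident pair, and PUB12 an AtHY5 event only. The best AtHY5 percentile of the list was 98.8, at PUB13, above 94.3 at CHIB.

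Of 14 genes for other pattern receptors and their partners, 3 had an AtPIF4 event, 8 an AtHY5 event and 1 coincident events. The shares were 21.4%, 57.1% and 7.14%, beside 31.5%, 59.9% and 16.7% of all genes. The gene with coincident events was FLS2, the flagellin receptor gene, with scores of 114 for AtPIF4 and 84 for AtHY5, 73 bp apart and 1322 bp outside the gene. The best AtHY5 percentiles were 91.4 at SOBIR1, 72.7 at FER, and 50.5 at LORE and at RLP23. They were 24.9 at FLS2, 20.2 at the co-receptor gene BAK1, 12.9 at DORN1 and 5.78 at EFR. For AtPIF4 the best were 63.8 at RLP30, 36.3 at LORE and 23.6 at FLS2. BAK1 had 1 AtHY5 event and no AtPIF4 event. No event of either protein was found at 5 of the 14, BKK1, PEPR1, PEPR2, WAK1 and WAK2, beside 33.7% of all genes. Whether these lists differ from each other or from the LysM receptor genes was not tested.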

How the data were processed

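Per the submitters' processing notes, reads were trimmed with Trim Galore, aligned with Bowtie2 and tied to the build TAIR10, with no versions given. Per the file headers, the event caller was GEM. Each deposited event is a 200 bp interval with a score from the authors' caller, with no scale or normalization stated. The use of the input library in calling is not stated.

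Genes came from a RefSeq table of TAIR10.1 (27444 protein-coding genes on 5 nuclear chromosomes), whose coordinates are not printed. Of the AtPIF4 and AtHY5 events, 63.1% and 65.3% lay inside genes, against 55.3% to 57.9% after shifts of 1000 or 2000 bp. The table has no strand or exons, and sequences were not used here, so the planned motif and protein comparisons were not run. The assignment of events to genes was tested on planted events before use. Python 3.11.15, NumPy 2.4.6, pandas 2.3.3, SciPy 1.17.1 and matplotlib 3.10.9 were used.

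All 8 members are named. The genes most like LYK4, the neighbours of events and the list genes with coincident events (at most 5 a list) were named by rule. The other genes of both lists were named outside that rule. Members and lists were chosen with earlier results of these data known. Windows of 0, 500, 1000 and 5000 bp, coincidence within 20, 50 and 200 bp, events above the median score and other rankings were tried.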

Additional observations from a re-analysis of the deposited data

How the results depend on the processing

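The number of members with events depends on the window. With events inside the gene only, 3 members had an AtPIF4 event, 3 an AtHY5 event, 2 both and 2 coincident events. At 500 and at 1000 bp, AtHY5 events were found at 3 members, without LYK2 and LYM3, while coincident events were found at 3, LYK4, LYK5 and LYM2. Among events above the median score, 3 members had an AtPIF4 event, 3 an AtHY5 event and 2, LYK4 and LYM2, coincident events. Coincidence within 20 bp left these 2 as well, since the LYK5 and LYM3 pairs are 41 and 80 bp apart. The other 13 counts lay within 1.5 times those reported, and at 5000 bp 7 members had an AtHY5 event. The percentile of the LYK4 AtPIF4 event was 99.1 without events near ribosomal RNA genes and 97.2 on chromosome 2 alone, and that of the AtHY5 event 99.3 and 98.6. No paired analysis was possible because each protein has 1 library. For the same reason no replicate could be left out. Library depth is unknown, so a gene without a called event cannot be told from one with too few reads.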
